A study of Mus musculus with 6 samples.

Results

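In cells labelled as bone marrow mesenchymal stromal cells (BMSCs) and treated with all-trans retinoic acid (RA), 66 of the 25722 genes in the count tables stood clearly below all controls in each RA-treated library. The 66 genes were chosen by their values. Counts were scaled to a total of 1000000 in each library (CPM), and a gene was kept when its lowest control CPM was at least 1.3 times its highest RA-treated CPM and was at least 1 CPM. Igsf10 was left out. Since the difference between the treatments chose these genes, their levels and fold changes are given as a description, and no test of that difference is read as support. The same rule turned round kept 139 genes that stood higher after RA.

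The cells were labelled BM-MSCs of wild-type C57BL/6 mice, and per the study's methods they came from tibia and femur marrow and were grown attached to plastic. All 6 cultures were kept in 5% O2 in low-glucose DMEM with 20% serum, antibiotics and 10 μM ROCK inhibitor, so the controls carried the inhibitor as well. There were 3 control libraries, from cells given the solvent DMSO, and 3 libraries from cells given ATRA (all-trans RA), at 1 μM for 48 h according to the labels, whereas the study's methods give a lower dose and a shorter time. The labels speak of 2 biological replicates although each group held 3 libraries. The study speaks of independent experiments without tying them to libraries, and no label links a library to an animal or culture, so any p-value below measures only the spread between these libraries. No age was given.

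RA acts through nuclear receptors of the RAR and RXR families, which bind pairs of short half-sites in DNA and raise or lower the genes nearby. In mesenchymal cells it is known to act on skeletal patterning, on the choice between cartilage, bone and fat, and on matrix production. Stromal cells of the marrow lay down collagens and other matrix, release signals such as R-spondins and osteoprotegerin to neighbouring cells, and carry surface proteins such as Sca-1 and endosialin by which they are often recognised. Several of the 66 genes encode proteins of these kinds.

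The libraries held between 14737636 and 18511905 counts, so that 3 counts, taken here as the floor, corresponded to 0.162 to 0.204 CPM. This and similar limits cover counting error only. The main axis of variation over the 1000 genes that varied most (57.2% of their variance) did not follow treatment. On one side of it lay control 2 with RA-treated 1 and 2, called library set 1, and on the other side control 1 and 3 with RA-treated 3, called library set 2. No label names a batch, set 1 holds 1 control and set 2 holds 1 RA-treated library, and values within the sets are therefore given beside many of the pooled ones. The sets were drawn from these same counts. P-values from a fit that held the set may therefore be too small and are given as a description. The summed level of 18 macrophage markers was 22123 to 24354 CPM in control and 22421 to 23455 CPM after RA, with none of the 18 at 0 in all libraries. The summed level of 18 mesenchymal stromal markers was 2771 to 5308 CPM in control and 2169 to 4311 CPM after RA, with control 2 the highest and RA-treated 3 the lowest, and 15 of these 18 passed the expression filter (Thy1, Nt5e and Meox2 did not). The macrophage sum was thus the higher of the pair in every library, and the cells are called BMSCs here after their labels. In such bulk RNA, fewer cells of a type and less RNA per cell cannot be told apart, and the part of the cell mixture in the differences below was not tested.

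The promoters that bear on the RA question are shown first. RefSeq promoter windows (GRCm38.p6, from 250 bases before to 50 bases after the gene start) were at hand for 43 of the 66 genes, 49 windows in all, and were set beside 12895 windows of 10094 tested genes. The RAR half-site AGGTCA, searched on both strands, was found in 2 of the 49 windows (4.08%) and in 12.2% of all windows. Those windows belong to Dusp8, a phosphatase of MAP kinases, and Ly6c1, a surface protein of the Ly6 family. Direct repeats of the half-site with 1, 2 or 5 bases between were found in 0 of the 49 windows, and in 4, 0 and 1 of the 12895. Both half-site windows follow, 5′ to 3′ on the gene's own strand. In Dusp8 (chr7:142095235-142095534, minus strand) the capitals mark the half-site, on the opposite strand and beginning 36 bases before the start, and 2 copies of the cAMP response element TGACGTCA at 107 and 63 bases before it. In Ly6c1 (chr15:75048788-75049087, minus strand) they mark the half-site at 125 bases and a TATA core, TATAAA, at 143 bases before the start.
Dusp8: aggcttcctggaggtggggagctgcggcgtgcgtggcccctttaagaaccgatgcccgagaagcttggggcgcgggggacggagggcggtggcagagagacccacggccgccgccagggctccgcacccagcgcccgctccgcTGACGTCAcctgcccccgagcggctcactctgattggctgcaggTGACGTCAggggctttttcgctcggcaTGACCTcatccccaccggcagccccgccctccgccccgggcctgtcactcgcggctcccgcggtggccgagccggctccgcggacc
Ly6c1: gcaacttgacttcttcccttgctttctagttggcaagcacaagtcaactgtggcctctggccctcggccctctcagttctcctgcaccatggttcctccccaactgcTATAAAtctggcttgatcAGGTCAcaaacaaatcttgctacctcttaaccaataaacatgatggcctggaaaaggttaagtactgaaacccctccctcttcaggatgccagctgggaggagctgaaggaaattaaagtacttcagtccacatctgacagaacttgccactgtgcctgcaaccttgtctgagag

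The other motifs searched, apart from the kappaB site, were each in at most 4 windows of the lowered genes. AP-1 (TGACTCA) was found in 1 of 49 windows (2.04%) against 3.74% of all windows, the TEAD motif CATTCC in 4 (8.16%) against 12.1%, the E-box CACGTG in 2 (4.08%) against 9.86%, the cAMP response element in 1 (2.04%, the Dusp8 window above) against 2.93%, the TATA core in 4 (8.16%) against 7.40%, and the CArG box in 0 against 1.32%. The kappaB site, searched by name as GGG, a purine, any base, a pair of pyrimidines and CC or its reverse complement, was found in 12 windows of 11 genes (24.5%) against 12.0% of all windows. The pattern is rich in G and C and can overlap other G-rich motifs. The windows of the lowered genes had a median GC content of 62% against 60.7%. Shown here are the window with the only AP-1 match, that of the connexin gene Gja1 (chr10:56377050-56377349, plus strand, capitals at 19 bases before the start), and the kappaB matches of the Wnt-binding protein gene Sfrp2 (chr3:83766071-83766370, plus strand, beginning 22 bases after the start) and of the collagen VI gene Col6a2 (chr10:76623355-76623654, minus strand, beginning 12 bases after the start). The first capitals in Col6a2 mark a TEAD motif at 115 bases before the start. A second window of Col6a2, not shown, has another kappaB match 80 bases before its own start.
Gja1: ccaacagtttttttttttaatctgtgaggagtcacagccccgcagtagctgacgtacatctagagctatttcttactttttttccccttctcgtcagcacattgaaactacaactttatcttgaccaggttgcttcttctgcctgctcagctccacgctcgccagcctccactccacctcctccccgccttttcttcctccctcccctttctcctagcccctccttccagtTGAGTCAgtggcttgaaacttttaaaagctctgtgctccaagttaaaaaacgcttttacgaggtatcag
Sfrp2: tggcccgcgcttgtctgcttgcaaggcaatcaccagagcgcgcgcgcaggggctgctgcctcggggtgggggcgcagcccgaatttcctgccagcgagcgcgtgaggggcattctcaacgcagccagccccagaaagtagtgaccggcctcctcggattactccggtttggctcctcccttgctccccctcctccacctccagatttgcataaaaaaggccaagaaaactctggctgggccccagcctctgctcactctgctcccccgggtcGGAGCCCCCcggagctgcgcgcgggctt
Col6a2: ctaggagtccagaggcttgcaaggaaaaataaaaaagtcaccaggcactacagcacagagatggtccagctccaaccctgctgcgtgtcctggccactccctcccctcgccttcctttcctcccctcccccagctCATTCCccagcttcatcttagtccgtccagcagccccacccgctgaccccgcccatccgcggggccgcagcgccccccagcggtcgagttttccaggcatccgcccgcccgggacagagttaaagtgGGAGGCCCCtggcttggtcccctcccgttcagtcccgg
A match is only a run of letters in this window, and binding was not measured.

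By textbook role, assigned after their names were known, 13 of the lowered genes encode matrix or matrix-binding proteins, 10 encode secreted signals or their receptors, 9 other cell surface and junction proteins, 9 cytoskeletal, trafficking or intracellular signaling proteins, 8 channels, transporters or lipid proteins, 4 structural RNAs and 2 transcription regulators, and 11 were left without a role. The annotation lists 59 of them as protein coding. The mean RA-treated CPM was between 32.9% (Gja1) and 95.4% (Gm15725) below the mean control CPM, with a median of 57.3%, and was at or under 50% of the control mean for 49 of the 66. The levels were mostly low. The control mean was under 5 CPM for 33 genes, 5 to 20 CPM for 23 and at least 20 CPM for 10. For 24 genes the gap between the groups was wider than the range within either group, and for the other 42 it was narrower than the wider of those ranges. Below, 3 values in a row are replicates 1 to 3 of a group.

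**Figure D1:**
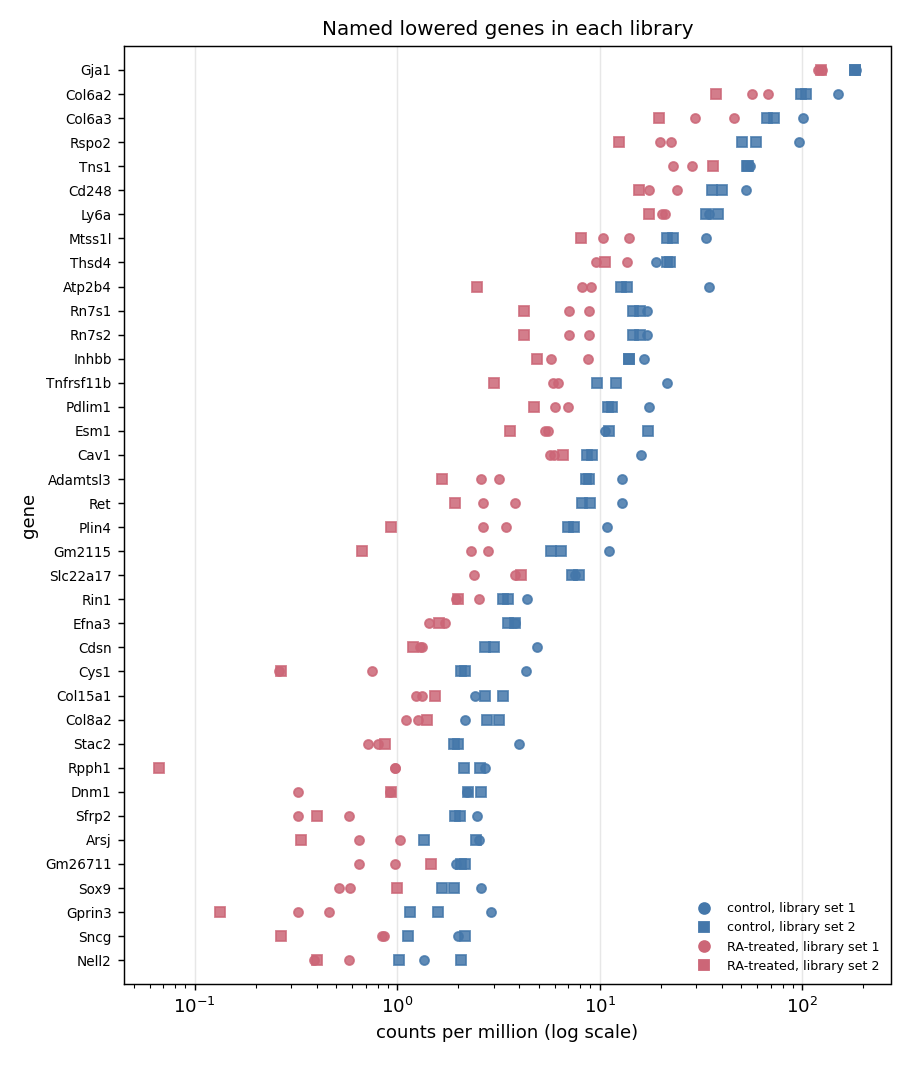
CPM (log axis) of the 38 named lowered genes with at least 1 count in each of the 6 libraries (Gm15725, at 0 in RA-treated 1 and 3, is not drawn), ordered by mean control level, with control in blue, RA-treated in red, circles for library set 1 and squares for library set 2. Gja1 has the tightest groups (182.7 to 183.7 CPM against 119.9 to 125.0 CPM) and, of the genes drawn, Rpph1 in RA-treated 3 is the lowest point, at 1 count.

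Among the matrix genes, 2 chains of collagen VI had the most reads. Collagen VI is a microfibril protein built from 3 different chains and found around most mesenchymal cells. Col6a2 (chromosome 10, 76595762 to 76623630 of GRCm38) stood at 104.8, 149.9 and 98.5 CPM in control BMSCs and at 67.6, 56.6 and 37.6 CPM after RA. Its mean was 117.7 ± 28.0 CPM (SD, n = 3) in control and 53.9 ± 15.1 CPM (SD, n = 3) after RA, and the log2 fold change, with its standard error (SE) from the edgeR fit, was -1.17 (SE 0.24). Col6a3 (chromosome 1, 90765923 to 90843971) had 72.2, 101.4 and 67.1 CPM in control and 46.2, 29.6 and 19.6 CPM after RA (log2 fold change -1.38, SE 0.31). In both, control 2 was the highest library and RA-treated 3 the lowest, and the groups did not overlap. The third chain, Col6a1, was not kept by the rule. It had 141.1, 283.8 and 147.2 CPM in control and 134.7, 108.0 and 61.3 CPM after RA, a log2 fold change of -0.95 (edgeR adjusted p = 0.795, or 0.00227 when the fit held the library set). RA-treated 1 lay only just below control 1 for Col6a1. Within library set 1 the 3 chains differed by -1.26 (Col6a1), -1.30 (Col6a2) and -1.47 (Col6a3) on the log2 scale, RA-treated minus control, and within set 2 by -1.25, -1.45 and -1.84.

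The other collagen genes kept were low. Col15a1, a basement membrane collagen, had 3.32, 2.43 and 2.73 CPM in control and 1.32, 1.24 and 1.54 CPM after RA. Col8a2, a short-chain collagen, had 2.78, 2.16 and 3.19 CPM against 1.27, 1.11 and 1.40 CPM. Col27a1, a fibrillar collagen of cartilage, went from a mean of 5.47 ± 0.408 CPM (SD, n = 3) to 3.36 ± 0.770 CPM (SD, n = 3). None of these 3 had control 2 and RA-treated 3 as both its extremes. Col18a1, the other collagen of the Col15a1 kind, had a log2 fold change of -1.04, and -1.56 and -0.71 within the library sets. Its edgeR adjusted p was 0.651, or 0.0649 when the fit held the library set. Col8a1, the partner chain of Col8a2, had a log2 fold change of 0.21, and -0.12 and -0.05 within the sets. Its edgeR adjusted p was 0.888, or 0.729 when the fit held the library set. Of 18 collagen genes in a list, all were tested, 12 had a log2 fold change below 0 and 6 above, and the median was -0.83. In 8 of them every RA-treated library lay below every control, against 5.11% of all tested genes. Of these 8, 4 were genes kept here, which the rule itself set apart (Col27a1 is not in the list). With edgeR's quasi-likelihood test 0 passed an adjusted p of 0.05 and 1.5-fold, the limits for each list below, in either direction (at an unadjusted p under 0.05, 9 were lower and 1 higher). When the fit held the library set 6 were lower and 1 higher, and with DESeq2 2 and 1. Of all tested genes, edgeR had 1.42% lower at an unadjusted p under 0.05 and 1.5-fold. The fit with library set called 0.795% lower and DESeq2 0.275%. These shares stand beside each list below as well. The higher gene was Col14a1, with 1.56, 2.38 and 1.33 CPM in control and 11.9, 12.2 and 4.88 CPM after RA.

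Matrix-binding proteins made up the rest of this group. Adamtsl3, a secreted protein related to ADAMTS proteases but without their protease domain, had the largest separation among matrix genes, with a lowest control CPM 2.70 times the highest RA-treated CPM. It stood at 8.55, 12.9 and 8.85 CPM in control and at 3.17, 2.60 and 1.67 CPM after RA (log2 fold change -2.06, SE 0.29). Esm1, the secreted proteoglycan endocan, had 11.1, 10.6 and 17.3 CPM against 5.53, 5.40 and 3.61 CPM. Thsd4, a fibrillin-binding protein, had 21.5, 19.1 and 22.2 CPM against 13.7, 9.56 and 10.6 CPM. Pamr1, a secreted protein first described in regenerating muscle, had 10.52, 11.02 and 12.24 CPM against 5.18, 4.23 and 6.35 CPM, with both groups narrow. Megf6, Ssc5d, Nell2 and Ccn3 were lower from control means of 2.98, 5.41, 1.48 and 2.06 CPM. For the 13 matrix genes together the log2 fold changes ran from -2.18 to -0.74 with a median of -1.17, and 9 of the 13 were lowered more within library set 2 than within set 1. A list of 34 matrix glycoproteins and proteoglycans (Dcn, Lum, Fbn1 and the like) held 0 of the lowered genes. Of its 27 tested genes 17 had a log2 fold change below 0, with a median of -0.06, and of -0.35 within each library set. The edgeR test passed 0 in either direction (1 lower and 2 higher at an unadjusted p under 0.05), the fit with library set 7 lower, Vcan, Fbn1 and Prelp among them, and 1 higher, Fbln1, and DESeq2 0.

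Among the secreted signals Rspo2, which encodes an R-spondin that strengthens Wnt signals, had the most reads. It lies on chromosome 15 (43020794 to 43170826) and stood at 50.5, 96.2 and 58.9 CPM in control BMSCs and at 22.4, 19.9 and 12.4 CPM after RA. The means were 68.5 ± 24.3 CPM (SD, n = 3) and 18.2 ± 5.19 CPM (SD, n = 3), 73.4% lower, and the log2 fold change was -1.95 (SE 0.30). Its difference was alike in the library sets, at -2.20 in set 1 and -2.14 in set 2. R-spondins bind the receptors Lgr4, Lgr5 and Lgr6 and so hold off the ubiquitin ligases Znrf3 and Rnf43, which remove Wnt receptors. These genes were looked up after the lowered genes were known. Lgr6 stood at 3.05, 5.40 and 2.06 CPM in control and at 22.5, 17.8 and 9.29 CPM after RA, with no overlap between the groups (log2 fold change 2.18, edgeR adjusted p = 0.320, and 0.00621 when the fit held the library set). Lgr4 had 11.2, 14.5 and 13.1 CPM against 23.0, 17.0 and 16.2 CPM. Its log2 fold change was 0.49 (edgeR adjusted p = 0.795, and 0.282 when the fit held the library set). Znrf3 had a log2 fold change of -0.36 (edgeR adjusted p = 0.795, and 0.463 when the fit held the library set). Lgr5 and Rnf43 had at most 9 and 14 counts in a library and were not tested.

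Sfrp2, a secreted binder of Wnt proteins, had the second largest ratio of all 66 genes, its lowest control CPM being 3.35 times its highest RA-treated CPM. It stood at 2.04, 2.48 and 1.93 CPM in control (30, 46 and 29 counts) and at 0.576, 0.325 and 0.401 CPM after RA (10, 5 and 6 counts). The log2 fold change was -2.32 (SE 0.32). Another member of its family went the other way in value. Sfrp4 stood at 23.7, 15.6 and 29.5 CPM in control and at 57.1, 77.8 and 118.0 CPM after RA (log2 fold change 1.84, edgeR adjusted p = 0.307, and 0.00200 when the fit held the library set). Sfrp1, the family member with the most reads, had a log2 fold change of 0.37. Its edgeR adjusted p was 0.795, and 0.440 when the fit held the library set. In a list of 32 Wnt pathway genes, 26 were tested, 10 were lower and 16 higher in value, and the median log2 fold change was 0.19 (-0.08 and 0.04 within the library sets). The edgeR test passed 0 in either direction (4 lower and 3 higher at an unadjusted p under 0.05), the fit with library set passed 3 lower and 1 higher, and DESeq2 2 and 1. The 3 lower genes were Rspo2, Sfrp2 and Dkk3, a secreted protein of the Dickkopf family with 139.6, 224.3 and 156.2 CPM in control and 140.3, 106.5 and 80.9 CPM after RA.

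Tnfrsf11b encodes osteoprotegerin, the soluble decoy receptor that keeps RANKL from the receptor RANK on osteoclast precursors. It stood at 9.70, 21.6 and 12.1 CPM in control and at 5.87, 6.24 and 3.01 CPM after RA (log2 fold change -1.56, SE 0.38), and the difference was -1.83 within each library set. Control 2 was the highest and its distance from the other controls was wider than the gap between the groups. The RANKL gene Tnfsf11 had 0, 15 and 4 counts in control and 59, 23 and 12 counts after RA, which overlapped. Its log2 fold change was 2.28 (edgeR adjusted p = 0.795, and 0.251 when the fit held the library set). The RANK gene Tnfrsf11a had a log2 fold change of -0.10 (edgeR adjusted p = 0.908, and 0.330 when the fit held the set). Of 10 osteoclast markers 7 were tested, 0 were among the lowered genes and the median log2 fold change was -0.27 (-0.15 and -0.04 within the library sets). The edgeR test and DESeq2 called 0 of them in either direction, and the fit with library set called Mmp9, a protease of osteoclasts and macrophages, higher (58.8, 148.8 and 50.6 CPM against 337.5, 271.9 and 92.2 CPM, log2 fold change 1.40, edgeR adjusted p = 0.795, and 0.0167 when the fit held the set).

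**Figure D2:**
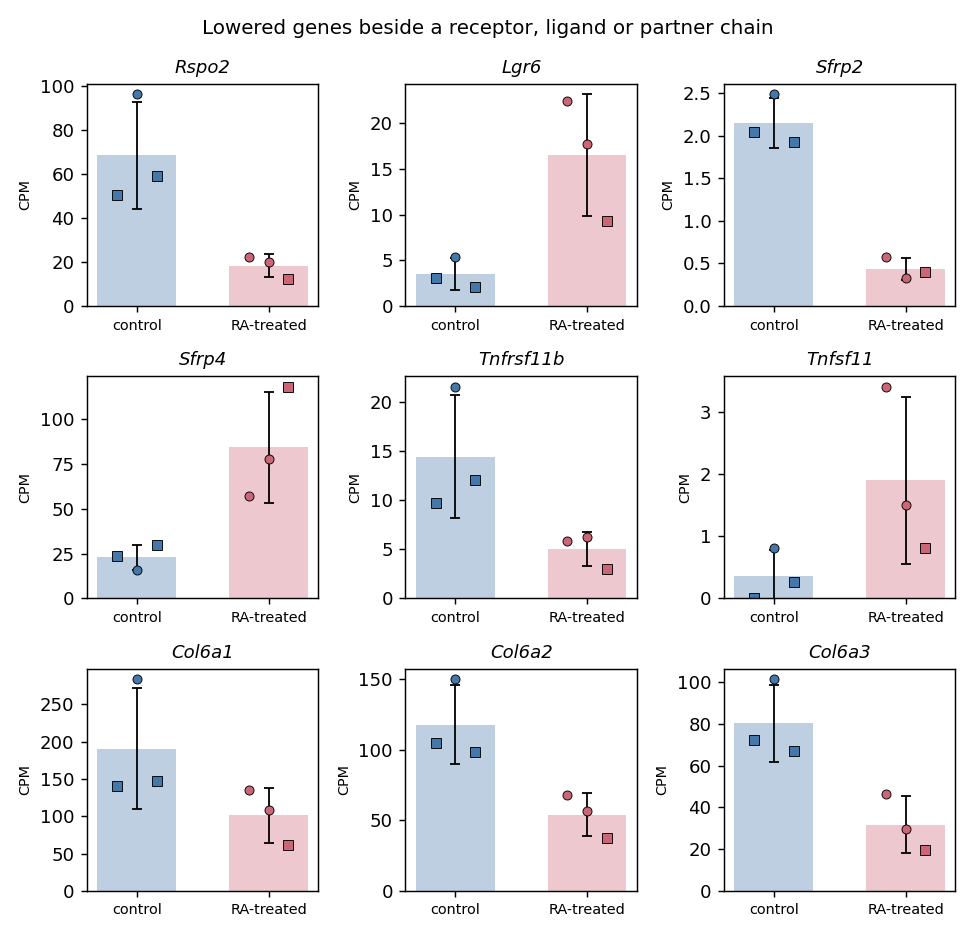
CPM in each library (points; circles for library set 1, squares for set 2), mean (bar) and SD (line) of 3 control and 3 RA-treated libraries, for lowered genes beside a receptor, ligand, relative or partner chain, each panel with its own linear axis. Rspo2, Sfrp2 and Tnfrsf11b are lower after RA while Lgr6 (3.51 against 16.5 CPM) and Sfrp4 (22.9 against 84.3 CPM) have higher means, Tnfsf11 overlaps between the groups, and in all 3 collagen VI chains control 2 is the highest library and RA-treated 3 the lowest.

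Ret, the receptor tyrosine kinase for ligands of the GDNF family, stood at 8.96, 12.9 and 8.18 CPM in control and at 3.80, 2.67 and 1.94 CPM after RA (log2 fold change -1.87, SE 0.30). Its co-receptors differ in level. Gfra1, Gfra2 and Gfra3 had at most 6, 4 and 1 counts in a library. Gfra4 had 9.64, 5.08 and 9.18 CPM in control and 7.37, 6.24 and 9.62 CPM after RA. The log2 fold change of Gfra4 was -0.08 (edgeR adjusted p = 0.954, and 0.564 when the fit held the library set). The ligand gene Gdnf had a mean of 1.61 ± 1.34 CPM (SD, n = 3) in control and 2.26 ± 1.35 CPM (SD, n = 3) after RA. Inhbb, the activin beta B subunit, had 13.9, 16.6 and 13.9 CPM against 8.75, 5.72 and 4.88 CPM (log2 fold change -1.24, SE 0.24). The sister subunit Inhba had 37.7, 134.5 and 44.6 CPM against 76.9, 54.6 and 23.5 CPM, overlapping between the groups, though lower after RA within both library sets (-1.07 and -0.82, edgeR adjusted p = 0.836, and 0.0277 when the fit held the set). In a list of 33 TGF-beta and BMP pathway genes, 30 were tested, Inhbb alone was among the 66, the median log2 fold change was -0.21 (-0.47 and -0.19 within the library sets), and the edgeR test passed 0 in either direction (2 lower and 0 higher at an unadjusted p under 0.05), the fit with library set 7 lower and DESeq2 1.

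Further receptors and ligands were lowered as well. Efna3, a membrane-bound ephrin, had 3.80, 3.84 and 3.53 CPM against 1.73, 1.43 and 1.60 CPM, with narrow groups. Eda, the TNF family ligand ectodysplasin, had 4.21, 4.65 and 4.39 CPM against 2.07, 1.63 and 2.54 CPM. The gene of its receptor Eda2r had a log2 fold change of 0.36 (edgeR adjusted p = 0.795, and 0.312 when the fit held the set). Tyro3, a receptor kinase for Gas6, went from a mean of 3.77 to 1.82 CPM. Its relatives Axl and Mertk differed by -0.50 and 0.09 on the log2 scale (adjusted p by edgeR 0.803 and 0.961). When the edgeR fit held the library set, these adjusted p-values were 0.102 and 0.243. Within library sets 1 and 2 Axl differed by -1.03 and -0.35 and Mertk by 0.80 and 0.24. Ackr4, a chemokine scavenging receptor, went from 6.09 to 3.51 CPM. Its ligand genes Ccl19 and Ccl21a had at most 2 and 1 counts in a library, and Ccl25 had a log2 fold change of 0.04. Igdcc4, a receptor of the immunoglobulin superfamily, went from 12.0 to 5.67 CPM.

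Of the surface and junction genes Gja1 separated the groups most evenly. It encodes the main connexin of bone and stromal cells, from which gap junctions are made, and lies on chromosome 10 (56377330 to 56402513). It stood at 182.7, 183.7 and 183.2 CPM in control and at 125.0, 119.9 and 123.8 CPM after RA. The difference was 32.9%, the smallest of the 66 genes, while the coefficient of variation was 0.274% in control and 2.15% after RA. Its log2 fold change was -0.62 (SE 0.10), and -0.61 and -0.58 within the library sets. Tns1, tensin, which ties integrins to actin, was nearly as even in control (54.2, 55.0 and 53.6 CPM) but not after RA (28.6, 23.0 and 36.1 CPM).

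The surface genes Ly6a and Cd248 are both used to recognise stromal cells. Ly6a, the gene of Sca-1, had 33.5, 34.7 and 38.3 CPM in control and 21.02, 20.4 and 17.5 CPM after RA (log2 fold change -0.90, SE 0.13). Cd248, endosialin, had 35.8, 52.9 and 40.0 CPM against 24.1, 17.6 and 15.6 CPM (log2 fold change -1.21, SE 0.21). Ly6a alone among the 15 tested mesenchymal stromal markers belonged to the 66 genes. The others were mixed, with a median of 0.06 over the list (-0.21 within set 1 and -0.04 within set 2), 7 lower and 8 higher in value. Pdgfrb and Cxcl12 differed by 0.36 and 0.34 on the log2 scale (adjusted p by edgeR 0.818 and 0.795), and Pdgfrb by -0.04 within set 1. The collagen genes Col1a1, Col1a2 and Col3a1 differed by -0.58, -0.56 and -0.41 (adjusted p by edgeR 0.803, 0.795 and 0.803), by -1.05, -0.95 and -0.63 within set 1 and by -0.87, -0.80 and -0.78 within set 2. Lepr, the leptin receptor of marrow stroma, stood at 0.475, 0.486 and 0.466 CPM in control and at 2.59, 3.12 and 9.29 CPM after RA (log2 fold change 3.35, edgeR adjusted p = 0.292, and 0.00644 when the fit held the library set). Ly6c1, next to Ly6a on chromosome 15, had 7.19, 5.02 and 7.32 CPM against 2.94, 3.64 and 3.74 CPM. The near-identical Ly6c2 had at most 3 counts in a library, and how reads were divided between them is not given in the sources used here. Cav1, caveolin, had 8.69, 16.0 and 9.11 CPM against 5.70, 5.92 and 6.62 CPM. Its partner genes Cav2 and Cavin1 differed by -0.03 and -0.72 on the log2 scale (adjusted p by edgeR 0.967 and 0.795). Cavin1 differed by -0.91 and -0.93 within the library sets. When the fit held the set, the edgeR adjusted p was 0.0120 for Cavin1 and 0.913 for Cav2. Rhbdf1, an inactive rhomboid, and Cdsn, a desmosome protein of skin, had log2 fold changes of -0.91 and -1.51. Mdga1 and the immune receptor Lilra6 went from 5.76 to 2.81 CPM and from 1.46 to 0.898 CPM.

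The intracellular genes were a mixed group. Mtss1l, a membrane-bending actin regulator, had 22.9, 33.5 and 21.5 CPM in control and 13.9, 10.4 and 8.09 CPM after RA (log2 fold change -1.31, SE 0.25). Pdlim1, a PDZ and LIM protein of stress fibers, had 10.99, 17.6 and 11.4 CPM against 6.97, 6.05 and 4.75 CPM. Cys1, the cilium protein cystin, had 2.17, 4.32 and 2.06 CPM against 0.749, 0.260 and 0.267 CPM. Dnm1, the dynamin of nerve terminals, had 2.24, 2.21 and 2.59 CPM against 0.922, 0.325 and 0.936 CPM. Rasgrf1 and Plekhg4, which activate small GTPases, Rin1, a Ras effector, and Dusp8 went from control means of 2.08, 2.48, 3.74 and 4.03 CPM to 0.644, 0.710, 2.16 and 1.91 CPM. In these genes, except Plekhg4, the difference was larger within library set 1 than within set 2. The contractile list of 19 genes (Acta2, Tagln and the like) held 0 of the 66, and its 18 tested genes had a median log2 fold change of -0.07, and of -0.29 and -0.32 within the library sets. Of these, 1, Tpm1, was called higher in the fit with library set and 0 by edgeR or DESeq2.

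Of the channel, transporter and lipid genes Atp2b4, a calcium pump of the plasma membrane, had the most reads and the widest spread. It stood at 12.8, 34.5 and 13.6 CPM in control and at 9.04, 8.19 and 2.47 CPM after RA, so that control 2 alone lay more than the whole RA-treated group's range above the other controls. Plin4, a lipid droplet coat protein, had 7.46, 10.9 and 6.98 CPM against 3.46, 2.67 and 0.936 CPM. Slc22a17, a receptor for lipocalin, had 7.87, 7.56 and 7.32 CPM against 3.80, 2.41 and 4.08 CPM. Genes best known from neurons and muscle were present at low level. Stac2, which binds voltage-gated calcium channels, had 1.90, 3.997 and 1.996 CPM against 0.806, 0.715 and 0.869 CPM. Cacna1b, the N-type calcium channel, had 6.65, 5.19 and 6.39 CPM against 3.34, 2.86 and 2.61 CPM. Grin2d, a glutamate receptor subunit, Cnih2, an auxiliary protein of glutamate receptors, and Slc27a3, a fatty acid transport family member, had log2 fold changes of -0.97, -1.31 and -0.86. A list of 15 adipocyte lineage genes held 0 of the 66, with a median log2 fold change of -0.22 over 11 tested genes (-0.13 and -0.08 within the library sets) and 0 called by edgeR, by DESeq2 or in the fit with library set.

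The transcription regulators kept were Sox9, the master factor of cartilage, and Mn1, a coactivator known from leukemia. Sox9 stood at 1.90, 2.59 and 1.66 CPM in control and at 0.518, 0.585 and 1.00 CPM after RA (log2 fold change -1.58, SE 0.37). The difference was -2.02 within library set 1 and -0.77 within set 2. Col2a1, a cartilage collagen that Sox9 is known to switch on, was not kept by the rule and had 110.8, 292.0 and 115.8 CPM against 104.2, 54.9 and 36.0 CPM (log2 fold change -1.45, edgeR adjusted p = 0.795, and 0.0119 when the fit held the library set). Mn1 had 1.36, 1.19 and 1.197 CPM against 0.576, 0.520 and 0.735 CPM. The list of 21 osteoblast lineage genes held 0 of the 66, and its 14 tested genes had a median log2 fold change of -0.05 (-0.13 and -0.24 within the library sets). The edgeR test called 0 in either direction (2 lower and 2 higher at an unadjusted p under 0.05), the fit with library set 0 lower and 2 higher, and DESeq2 0 and 1. The higher genes were Ogn, the proteoglycan osteoglycin, at 27.2, 28.1 and 29.9 CPM against 97.3, 121.6 and 67.6 CPM, which DESeq2 called as well, and the bone morphogenetic protein gene Bmp2, at 5.90, 2.11 and 7.58 CPM against 10.9, 11.3 and 37.5 CPM.

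Few structural RNA genes were kept, and that they were lower in every RA-treated library follows from the rule. Rn7s1 and Rn7s2 encode the RNA of the signal recognition particle, Rpph1 the RNA of RNase P, and Rmrp the RNA of RNase MRP, all short and transcribed by RNA polymerase III. Rn7s1 and Rn7s2, 201.6 kb apart on chromosome 12, had identical counts in all 6 libraries, so they count as 1 signal, of 15.9, 17.1 and 14.6 CPM in control and 8.81, 7.09 and 4.21 CPM after RA. Rpph1 had 38, 50 and 32 counts in control and 17, 15 and 1 counts after RA. Rmrp had 26, 27 and 48 counts against 16, 7 and 2 counts, and it lies within an overlapping long noncoding entry of the same name. RA-treated 3 was the lowest library for all 4 genes, whose log2 differences were between -3.72 and -1.84 within set 2 and between -1.38 and -1.04 within set 1. Of 6 short structural RNA genes that passed the expression filter, Rn7s1 and Rn7s2 both counted, 5 were lower in value, these 4 and Rn7sk. Rn7sk overlapped between the groups and differed by 0.01 within set 1 and -2.69 within set 2 (10.5, 3.89 and 6.59 against 2.71, 5.79 and 1.203 CPM). All such genes together took 0.00432 to 0.00482% of the counts in control and 0.00128 to 0.00274% after RA. The share of mitochondrially encoded genes was 0.582 to 0.649% in control and 0.676 to 1.51% after RA. These RNAs mostly lack poly(A) tails, and whether the mitochondrial share had a part in the difference was not tested.

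Among the 11 genes without a role, Gm15725 had the largest ratio of all, 3.89, with 33, 66 and 19 counts in control and 0, 5 and 0 counts after RA. It is a processed pseudogene inside Lrrc58 on the same strand, and Lrrc58 itself had a log2 fold change of 0.04. Gprin3, a G protein regulator of neurite growth, had 17, 54 and 24 counts against 8, 5 and 2 counts. Gm2115 had 5.77, 11.1 and 6.45 CPM against 2.30, 2.80 and 0.668 CPM. Gm26566 had 11.9, 7.51 and 8.12 CPM against 5.24, 0.715 and 5.35 CPM, RA-treated 2 standing far from the other RA-treated libraries. The remaining 7 (Zfp365, Gm47428, Gm49322, Tmem151a, Arsj, Gm26711 and Sncg) had control means of 1.77 to 6.58 CPM and RA-treated means of 0.659 to 3.95 CPM. For 22 of the 66 genes another listed gene overlaps, on the same strand for 6 and on the opposite strand for 17, and whether the counting used strand is not given in the sources used here. The overlapping genes of Dnm1 (Ciz1), Plin4 (Hdgfl2), Cnih2 (Yif1a), Grin2d (Kdelr1), Ackr4 (Acad11), Gm47428 (Ftl1-ps1) and Gm26566 (Klhl9) had log2 fold changes between -0.17 and -0.01. Those of Rmrp (Ccdc107), Gm49322 (Scamp4 and Adat3) and Nell2 (Tmem117) had -0.28, -0.28, -0.37 and -0.40, and that of Gm26711 (Fbrsl1) had -0.73.

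All 66 genes passed the expression filter, which kept 13842 genes. With edgeR's quasi-likelihood test, 0 of the 66 were called lower at an adjusted p under 0.05 and at least 1.5-fold, and 1 of all tested genes was (0.00722%, Igsf10). At an unadjusted p under 0.05 and the same fold, 64 of the 66 and 1.42% of all tested genes were lower, the exceptions being Gm26566 and Grin2d. DESeq2 called 33 of the 66 and 0.275% of all tested genes. When the fit held the library set, edgeR called 31 of the 66 and 0.795% of all tested genes, and 27 of the 66 passed in both of these fits. Every RA-treated library lay below every control for all 66 by the rule, and for 5.11% of tested genes. The rule used this same contrast, so nothing is read from these shares. The median log2 fold change of the 66 genes was -1.26 and that of all tested genes -0.02.

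Within the library sets the size of the difference varied. The median was -1.30 within set 1 and -1.24 within set 2, and 57 of the 66 genes were at least 1.5-fold lower in both. The rule already kept a gap of at least 1.3-fold between the groups, so nothing is read from that count. That all 66 were lower in both sets (against 34.99% of tested genes) follows from the rule. The difference was larger in set 1 for 38 genes and in set 2 for 28. Control 2 was the highest library for 42 genes, and RA-treated 3 or RA-treated 2 the lowest for 30 and 28.

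**Figure D3:**
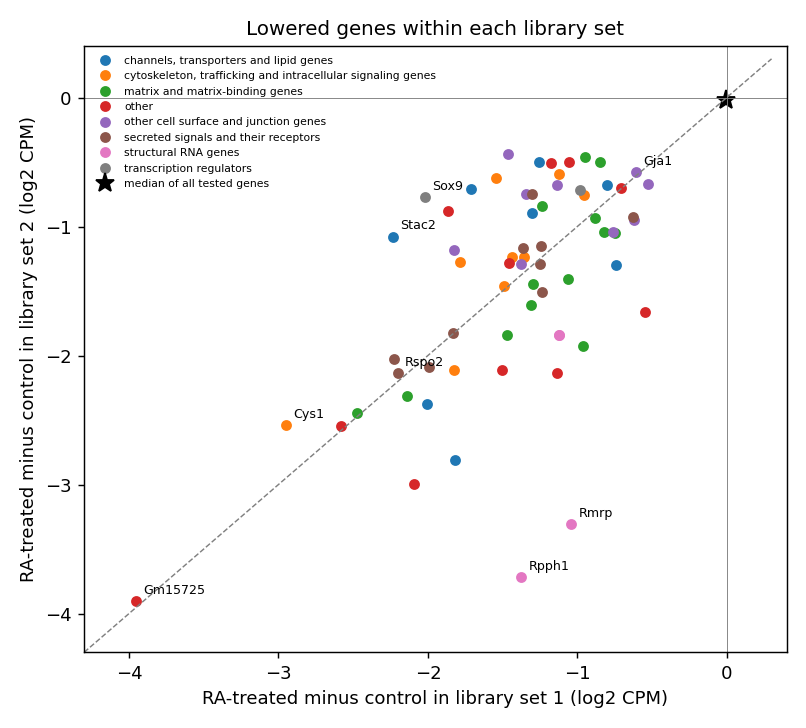
RA-treated minus control level (log2 CPM) of the 66 lowered genes within library set 1 (horizontal) and set 2 (vertical), colored by role, with the line of equal change dashed and the median of all tested genes as a star near 0. Rpph1 and Rmrp lie far below the line (-3.72 and -3.30 in set 2 against -1.38 and -1.04 in set 1), and Sox9 and Stac2 above it.

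The limit of the rule cut through similar genes. Just inside it were Gm26711, Cav1, Rin1, Arsj and Sncg, with ratios of the lowest control to the highest RA-treated CPM between 1.309 and 1.32. Just outside were Nfkbie, Slc29a1, Gm49272, Fzd5 and Gm12404, with ratios between 1.27 and 1.29. Nfkbie, an inhibitor of NF-κB, stood at 9.09, 9.99 and 8.45 CPM in control and at 6.28, 5.01 and 6.55 CPM after RA. Fzd5, a Wnt receptor, had 53.7, 45.5 and 47.1 CPM against 35.6, 32.6 and 35.6 CPM, and Slc29a1, a nucleoside transporter, 84.9, 120.2 and 84.9 CPM against 66.3, 62.0 and 58.6 CPM.

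The median GC content of the lowered genes, which the rule did not use, was higher than that of all genes. Their longest transcripts had a median GC content of 56.1% against 49.2% over all tested genes. When all tested genes were put in quintiles by GC content, 36 of the 66 fell in the highest quintile (55.2 to 78.3% GC) and 5, 3, 12 and 10 in the others from the lowest up. Those in the lowest quintile were Gprin3, Gja1, Cav1, Tnfrsf11b and Pdlim1. The whole table moved with GC as well. Over all genes the median log2 fold change went from 0.17 in the lowest quintile through 0.08, -0.02 and -0.10 to -0.24 in the highest, from 0.21 to -0.27 within library set 1 and from 0.10 to -0.12 within set 2. Of the 139 raised genes 42 were in the lowest quintile and 15 in the highest. The part of GC content in the choice of these genes was not tested.

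**Figure D4:**
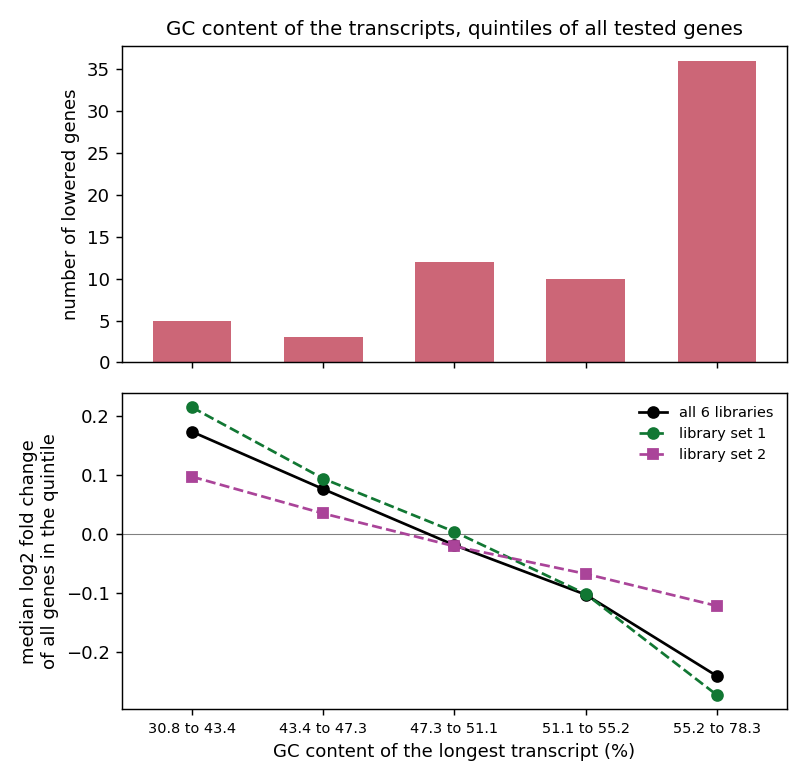
Number of lowered genes (upper panel) and median log2 fold change of all tested genes (lower panel; all libraries in black, library set 1 green, set 2 purple) in quintiles of all tested genes by GC content of the longest transcript. The highest quintile holds 36 of the 66 lowered genes, and the median change of all genes goes from 0.17 to -0.24 across the quintiles.

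Level and length differed as well. The median over the 6 libraries was 3.54 CPM for the lowered genes and 22.1 CPM for all tested genes, and 33 of the 66 lay in the lowest quintile by level (up to 3.44 CPM) against 2 in the highest. The 139 raised genes leaned the same way, with 57 in the lowest quintile and 8 in the highest. The median exon length was 4813.5 and 4308 bases. Per kilobase of exon, Ly6a (29.4 CPM), Gja1 (17.9), Cd248 (16.5), Col6a2 (14.1) and Rspo2 (13.4) had the highest control levels among the protein-coding genes, in CPM per kilobase. Few of the 66 were neighbours. Rin1, Cd248, Tmem151a and Cnih2 lie close together on chromosome 19 between 5050481 and 5098521, with gaps of 11.007, 0.177 and 7.34 kb. Yif1a, which overlaps Cnih2 on the opposite strand, was not kept and had a log2 fold change of -0.09. Ly6a and Ly6c1 are 46.0 kb apart, and Tnfrsf11b and Ccn3 467.2 kb apart, both pairs on chromosome 15.

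In the remaining lists 0 of the 66 genes appeared, and medians of the log2 fold change are given here with those within library sets 1 and 2. Over all tested genes edgeR called 0.0361% higher, DESeq2 0.708% and the fit with library set 0.744%. The 14 tested retinoid response genes had a median of 1.01 (0.92 and 0.89), with 11 higher and 3 lower in value. Of them 2, Cyp26b1 and Cd38, were called higher by edgeR (adjusted p = 0.00207 and 0.0201) and 0 lower, the fit with library set called 6 higher and 1 lower, and DESeq2 7 and 0. The lower gene was Aldh1a2, an enzyme that makes RA, with 31.9, 52.1 and 40.6 CPM in control and 25.5, 28.8 and 15.4 CPM after RA (log2 fold change -0.88, edgeR adjusted p = 0.721, and 0.0145 when the fit held the library set). The RA receptor gene Rara likewise had every RA-treated library below every control, with 20.2, 15.6 and 16.6 CPM against 13.0, 11.8 and 12.9 CPM (log2 fold change -0.52, edgeR adjusted p = 0.795). The 21 cell division genes were all higher in value, with a median of 1.07 (0.85 and -0.11), and 0 were called in any of the 3 fits (1 higher by edgeR at an unadjusted p under 0.05). Their summed level was 480 to 534 CPM in the 3 libraries of set 2, 1381 CPM in control 2, and 2186 and 2317 CPM in RA-treated 1 and 2. Among cell type markers the medians were -0.10 (0.14 and -0.01) for 18 macrophage markers, 0.02 (0.55 and 0.12) for the 4 tested of 10 endothelial markers and 0.03 (-0.06 and -0.25) for the 3 tested of 18 markers of other blood cells, with 0 called in the 3 fits. The median of 25 chemokines and cytokines was -0.26 (-0.56 and -0.13), with 4 lower and 2 higher in the fit with library set and 2 higher with DESeq2. That of 31 growth factors was -0.08 (-0.21 and -0.05), with 2 higher in both of these fits. For 18 matrix metalloproteinases and inhibitors it was -0.15 (-0.44 and -0.12), with 1 lower and 2 higher in the fit with library set and 1 higher with DESeq2. It was 0.07 (0.26 and 0.12) for 17 prostaglandin and nitric oxide enzymes, with 2 higher in the fit with library set, and -0.14 (-0.19 and 0.0015) for 35 axon guidance genes, with 1 higher. At an unadjusted p under 0.05 edgeR had 0 chemokines and cytokines lower and 4 higher, and 3 and 4 of the growth factors. These counts were 1 and 2 for the metalloproteinase list, 0 and 2 for the enzymes and 0 and 5 for the axon guidance genes. In the last 5 lists 0 were called in the 3 fits, and the medians were -0.07 (-0.13 and -0.06) for 32 NF-κB pathway genes, -0.28 (0.38 and -0.34) for 23 interferon-stimulated genes, -0.03 (-0.0014 and 0.02) for 26 cholesterol and fatty acid synthesis genes, -0.21 (-0.39 and -0.24) for 20 immediate early genes and -0.03 (-0.22 and -0.16) for 25 hypoxia and glycolysis genes. Lower in value were, in this order, 22, 21, 15, 16 and 13 of these genes.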

How the data were processed

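Libraries were made from DNase-treated total RNA with a TruePrep kit and sequenced on an Illumina instrument. The authors deposited 1 table of whole-number read counts per gene for each library, not normalized, and the submitters' processing notes name Bowtie2 2.2.3 and the mm10 genome. The counting program, its annotation and its use of strand are not given in the sources used here. Groups came from the sample labels. Gene identifiers (25722) were matched to GENCODE M21 (GRCm38), and 24 names that had turned into dates were restored from it.

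The members were found from CPM by library total. Counts were tested in R 4.3.3 with edgeR 4.0.16 (TMM scaling, filterByExpr, quasi-likelihood F test of RA-treated against control, Benjamini-Hochberg adjustment over 13842 genes, calls at an adjusted p under 0.05 and 1.5-fold). Adjusted p-values in the report are from this test unless another fit is named. The alternatives were DESeq2 1.42.0, the library set as a covariate, the replicate number as a block, library size scaling, no filter, the likelihood ratio test and leaving out each library. With 3 libraries against 3 the smallest exact permutation p is 0.10, two-sided, so none is given. Differences within library sets are of log2 CPM with a prior count of 2.

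Named were the 20 genes with the highest ratio, the 10 with the highest control mean, those in a list, the 5 on either side of the limit, and up to 15 called in an alternative, with the remaining members named more briefly. The members, lists and rules were chosen with earlier results of these data known, and roles and partner genes after the members' names were known. Replicates of a group differed beyond sampling noise (chi-square per degree of freedom 4.88 to 91.8), and all libraries were kept.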

Additional observations from a re-analysis of the deposited data

How the results depend on the processing

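With edgeR's quasi-likelihood test, 1 gene of the table and 0 of the 66 were called lower. These counts were 110 and 31 when the library set was a covariate, 38 and 33 with DESeq2, 41 and 36 with the likelihood ratio test, 3 and 2 without a filter, 196 and 64 at an unadjusted p, and 0 and 0 with library size scaling or with any 1 library left out. The covariate takes out the spread between the sets, while the cause was not tested for the rest. As the sets came from the same counts, the calls of that fit are a description. The number of genes kept by the rule went from 66 to 37 with a 1.5-fold limit, to 31 with at least 5 CPM and to 227 with no floor on CPM. Leaving out 1 library can only add genes, and it gave 90 (RA-treated 2) to 172 genes (RA-treated 1), with 165 without RA-treated 3, 138 without control 2, 121 without control 3 and 93 without control 1. With TMM or DESeq2 scaling 77 genes were kept, 63 and 65 of them among the 66. The median log2 fold change of the 66 lay between -1.35 and -1.18 in every alternative run, and none of the 44 named genes changed sign. The rule placed every RA-treated library of the 66 below every control, so nothing is read from this stability. Of the 66 genes 33 lay under 5 CPM in control, where counting error is largest, and 4 had an RA-treated library at 3 counts or fewer.

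The replicate number as a block left 0 genes of the table and 0 of the 66 called. After subtraction of the group means, libraries with the same number correlated at -0.510, 0.343 and 0.572, so the numbers do not pair the libraries.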
